A study of Mus musculus with 32 samples.

Results

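Nampt and the 7 sirtuin genes, Sirt1 to Sirt7, were followed over the day in mouse brown adipose tissue. The 8 genes were taken by symbol from a table of 50686 genes, and all 8 were found and passed the filter on low counts that left 15505 genes. The tissue was the interscapular depot (iBAT), a pad of thermogenic fat on the upper back, and came from male C57BL/6J mice of 10 weeks, which were fed chow, had free access to food until they were killed with CO2, and lived at 22 °C, mild cold for a mouse. Lights came on at Zeitgeber time 0 (ZT0), when mice begin to rest, and went off at ZT12, when they become active. There were 8 groups, 3 h apart from ZT0 to ZT21, which differed by design only in the time of killing, with 4 mice in each and 1 library per mouse. Each mouse was measured once, so a course over the day is put together from different mice. C57BL/6J mice carry a deletion in Nnt, the mitochondrial transhydrogenase that couples NADH to NADPH, and all groups share it.

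NAD is the electron carrier of oxidative metabolism and is also used up as a substrate by signalling enzymes. Nampt makes nicotinamide mononucleotide from nicotinamide, which is the rate-limiting step of the salvage route that returns nicotinamide to NAD. The sirtuins are NAD-dependent deacylases that release nicotinamide: Sirt1, Sirt6 and Sirt7 are mainly nuclear, Sirt2 is mainly cytosolic, and Sirt3, Sirt4 and Sirt5 are mitochondrial. In liver, Nampt is a known target of the clock factors CLOCK and BMAL1, which bind the E-box CACGTG.

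The promoters of Nampt, the gene with the widest course over the day, and of Sirt1, the sirtuin best known for its link to the clock, are shown because they differ in this motif. Both are from RefSeq (GRCm38.p6), 5′ to 3′ on the strand of the gene, and give the 250 bases before the start site that RefSeq uses, with each E-box in capitals. The GENCODE gene spans of Nampt and Sirt1 begin upstream of these start sites, so both windows lie inside the spans, and the windows before those earlier starts were not searched. The Nampt window is chr12:32820085-32820334 on the plus strand, the Sirt1 window is chr10:63339036-63339285 on the minus strand.
Nampt: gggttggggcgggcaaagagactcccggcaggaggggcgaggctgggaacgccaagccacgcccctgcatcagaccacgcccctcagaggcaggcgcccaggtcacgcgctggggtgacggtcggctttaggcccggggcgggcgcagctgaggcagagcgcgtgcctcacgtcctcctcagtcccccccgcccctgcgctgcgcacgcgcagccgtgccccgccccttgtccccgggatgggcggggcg
Sirt1: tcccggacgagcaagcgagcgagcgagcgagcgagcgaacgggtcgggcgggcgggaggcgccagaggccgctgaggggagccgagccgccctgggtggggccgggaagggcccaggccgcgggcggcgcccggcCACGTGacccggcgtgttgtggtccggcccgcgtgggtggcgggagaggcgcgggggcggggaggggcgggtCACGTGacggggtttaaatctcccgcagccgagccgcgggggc
The Sirt1 window held 2 E-boxes, which begin 115 and 43 bases before the start site. Of 32851 promoter windows of the same length, 6.02% held at least 1 E-box and 0.429% at least 2. The Nampt window held none, and neither did the windows of the other 6 sirtuins. The E-box variant CACGTT and the D-boxes TTATGTAA and TTACGTAA, searched on both strands, were in no window of the 8 genes; they were in 3.85%, 0.819% and 0.113% of all windows. The ROR motif AGGTCA, present in 14% of all windows, was found once before Nampt, 151 bases from the start, and at 2 places before Sirt5, with no overlap with the motifs above. These matches are letters in a window of fixed length and say nothing about binding in this tissue.

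Total counts per library lay between 16300770 and 18254659, and reads on a single one of the 8 genes ran from 124 (Sirt6) to 13160 (Nampt) per library. Per the library names in the labels, ZT0, ZT3 and ZT6 were on sequencing lane 2, ZT9, ZT12 and ZT15 on lane 3, and ZT18 and ZT21 on lane 4, so that between lanes the lane and the time of day cannot be told apart. All 10 brown adipocyte markers were detected in every library, with a summed level of 8920 to 14800 CPM (reads of a gene relative to the scaled total of its library). Skeletal muscle markers summed to between 2.23 and 5460 CPM, and from 5.82 to 5460 within ZT3 alone. No marker gene of any list was at 0 in all libraries. Leukocyte markers summed to 19.0 to 118 CPM. In bulk tissue, fewer cells of a type and less RNA per cell cannot be told apart.

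Levels of different genes were compared per kilobase of exon (RPKM). Nampt stood far above the sirtuins, with a mean of 96.7 RPKM ± 26.0 (SD, n = 32) and a lowest value of 52.5. Sirt2, a tubulin and histone deacetylase, followed at 18.1 ± 1.1, and its highest mouse reached 20.1. Sirt3, the main mitochondrial deacetylase, stood at 12.6 ± 0.995. The values of Sirt2 and Sirt3 met at 15.2 RPKM. The mean was 5.59 ± 0.639 for Sirt4, 4.06 ± 0.445 for Sirt7, 3.80 ± 0.461 for Sirt1, 3.43 ± 0.458 for Sirt6 and 2.97 ± 0.567 for Sirt5, and neighbours in this order overlapped. Per length, the most abundant sirtuins were therefore the cytosolic one and one of the 3 mitochondrial ones, and the 3 nuclear ones lay close together.

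**Figure D1:**
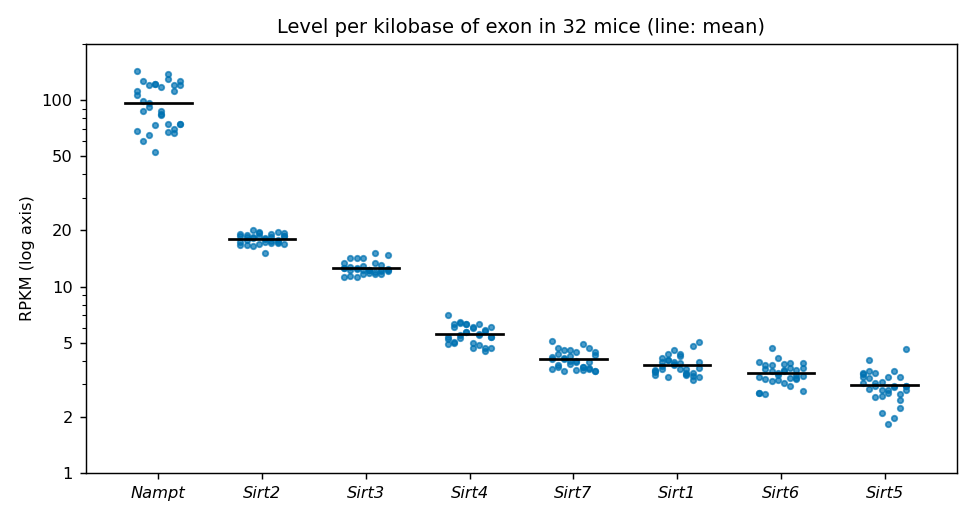
Level of each gene in RPKM on a log axis, with 1 point per mouse (n = 32) and a line at the mean. All Nampt values, from 52.5 upward, lie above the highest sirtuin value of 20.1, and the values of Sirt7, Sirt1, Sirt6 and Sirt5 overlap.

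To ask which of the 8 genes change over the day, oscillation was tested with JTK, which compares the ranks of the mice with cosine templates of 21 and 24 h. By its threshold of 0.05, 6 of the 8 genes oscillated, where 36.4% of all tested genes did, and 5 of the 8 (all but Sirt2) after the adjustment of Benjamini and Hochberg (BH) across all genes tested, where 27.1% did. A 24 h cosine fitted to the counts (edgeR quasi-likelihood test, BH-adjusted over all tested genes) was called for the same 6, Nampt, Sirt2, Sirt3, Sirt4, Sirt6 and Sirt7, against 36.1% of all genes. The calls of Sirt2 and Sirt6 depended on the processing: with library size alone in place of TMM, or without the filter, the cosine was called for 4 of the 8, and with library size alone the JTK P of Sirt6 was 0.0798, which leaves 5 of the 8 genes by JTK. Peaks of 4 of them fell in the dark phase (Nampt, Sirt2, Sirt4 and Sirt7) and of 2 in the light phase (Sirt3 and Sirt6). Beside these peaks, 4 of 9 tested leukocyte markers, 3 of 4 stroma markers and 3 of 10 brown adipocyte markers had a cosine, all with a peak in the light phase, among them the stroma genes Pdgfra (ZT7.29) and Col3a1 (ZT7.6). Of the white fat markers 2 of 3 had a cosine, Nnat (ZT11.07) and the hormone gene Lep, with a dark peak at ZT16.01 and an amplitude of 1.07 (edgeR, adjusted p = 0.0017; 0.00792 beside lane), and of the endothelial markers 2 of 4, Kdr with a dark (ZT23.8) and Cdh5 with a light peak (ZT3.01). Beside lane a cosine was called for 1 of 9 leukocyte, 2 of 4 stroma and 2 of 10 brown adipocyte markers. It was called for 1 of 3 white fat and 0 of 4 endothelial markers, against 17.2% of all genes. The part of these cell types in the courses of the 8 genes was not tested. Any difference between the 8 time points was called for 5 of the 8 (Sirt2 was not), against 39.8% of all genes. With library size alone or without the filter the count was 3, without Sirt3 (adjusted p = 0.11 and 0.107) and Sirt6 (0.136 and 0.0958). This call of Sirt6 was also lost with the muscle marker level as a covariate (0.0847) and in 12 of the 32 fits without 1 mouse. With lane as a term beside the cosine, 4 of the 8 were called, Nampt, Sirt3, Sirt4 and Sirt7, against 17.2% of all genes. A second harmonic of 12 h, which would show 2 peaks a day, was called by edgeR for 0 of the 8 genes, with 1 at an unadjusted p under 0.05, and for 0.464% of all genes.

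**Figure D2:**
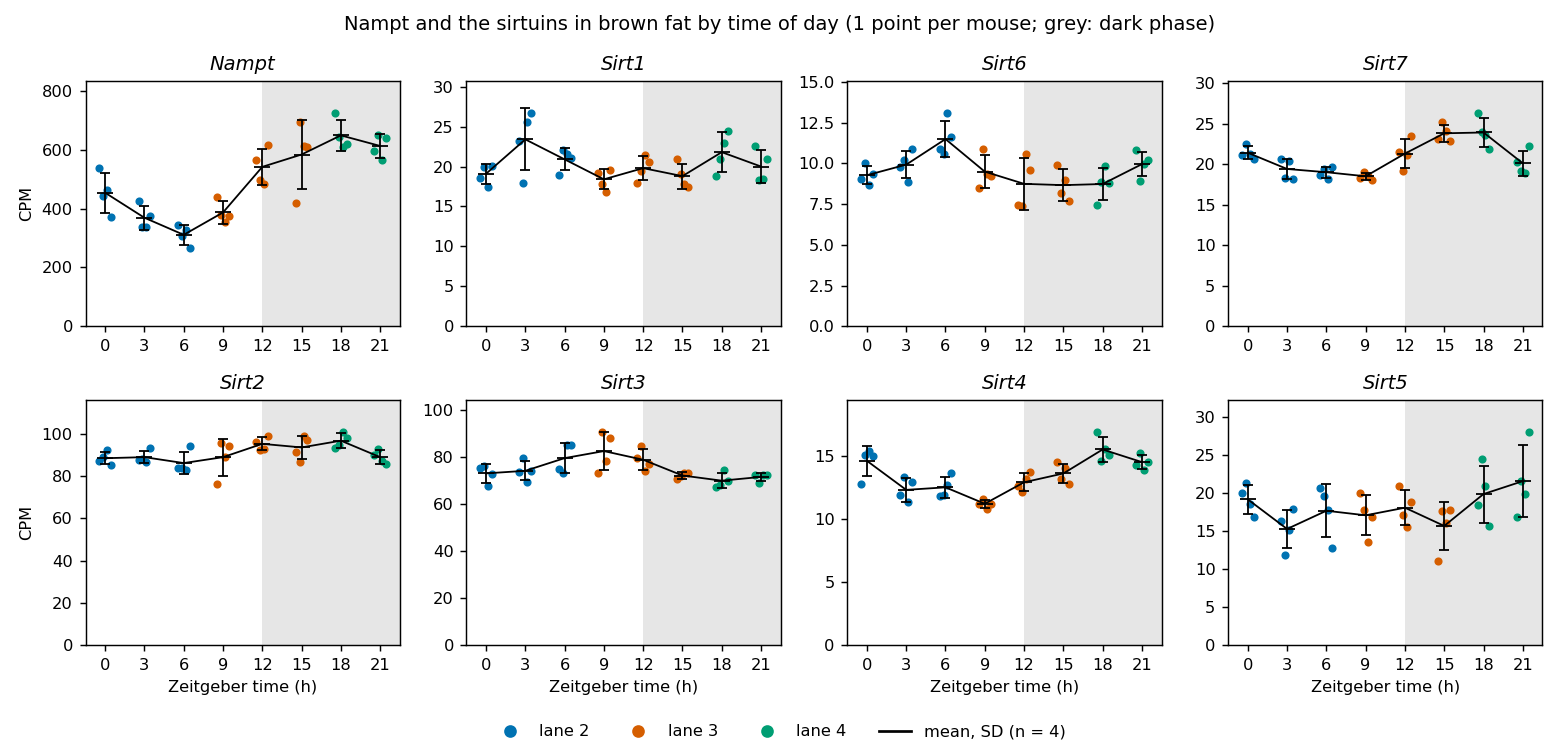
Level of each gene in CPM against Zeitgeber time, with 1 point per mouse coloured by lane, the mean and SD of 4 mice in black, and the dark phase in grey. Nampt goes from a mean of 311 CPM at ZT6 to 649 at ZT18, and the sirtuins keep within a fold of 1.41 between their highest and lowest means.

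Nampt was lowest in the middle of the light phase and highest in the middle of the dark phase. At ZT0 the 4 mice had 538, 442, 465 and 371 CPM, at ZT3 they had 425, 339, 337 and 376, and at ZT6 they had 344, 306, 327 and 265. The means of these 3 groups of lane 2 were 454 ± 68.5, 369 ± 41.2 and 311 ± 34.0 (SD, n = 4), and the ranges of neighbouring groups overlapped. At ZT9 the values were 441, 377, 354 and 376 CPM, at ZT12 564, 499, 485 and 618, and at ZT15 418, 695, 613 and 609. All mice of ZT12 lay above all mice of ZT9, as they did for Sirt4, Sirt7 and 3.38% of all genes, in either direction, while ZT15 had the largest spread of the 8 groups (584 ± 117), with replicate 1 at 418. At ZT18 the values were 725, 642, 610 and 619 CPM and at ZT21 596, 650, 566 and 641. Every mouse of these last 2 groups was above every mouse of ZT0 to ZT9. The 2 groups make up lane 4, so here lane and time of day cannot be told apart. The share of all genes with such a separation was not counted. In the order of the 8 means (ZT18, ZT21, ZT15, ZT12, ZT0, ZT9, ZT3, ZT6) the mice of each group overlapped those of the next.

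The cosine of Nampt had an amplitude of 0.50 ± 0.05 (SE) on the log2 scale, which is a peak 2.01 times the trough, and a peak at ZT17.53 ± 0.35 h (edgeR quasi-likelihood test, adjusted p = 4.18e-09; exact JTK P = 1.34e-09). Over all tested genes the median amplitude was 0.14, and over the genes with a cosine 0.22. Beside lane, the adjusted p of the cosine was 2.26e-04. Within lane 2 alone the 3 time points differed (adjusted p = 0.0291), as for 13.3% of all genes. This call was lost in 6 fits without 1 mouse (ZT0 replicates 1 to 3 and ZT6 replicates 2 to 4), with a highest adjusted p of 0.0746. Only fits that leave out 1 of the 12 mice of lane 2 can change this test. Within lane 3 (0.0985) and lane 4 (0.591, where 4.48% of all genes passed) Nampt did not pass. Between ZT18 and ZT6, which are on different lanes, Nampt was higher by 1.06 ± 0.13 on the log2 scale with no overlap of mice (adjusted p = 1.92e-06). Between the onset of dark and the onset of light, the means of 542 and 454 CPM gave 0.25 ± 0.12 and an adjusted p of 0.166. With library size alone in place of TMM this difference was called (edgeR, adjusted p = 0.0433). The cosine call remained in each of the 32 fits that left out 1 mouse, with a highest adjusted p of 2.13e-08.

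Nampt lies on chromosome 12 from 32819545 to 32853349 on the plus strand (GRCm38, GENCODE M21) and has 5054 exonic bases. Its gene body holds the lincRNA Gdap10, on the same strand and without exonic overlap. Gdap10, at a mean of 28.6 CPM, had a cosine with an amplitude of 0.61 ± 0.12 and a peak at ZT14.83 (edgeR, adjusted p = 2.86e-04), which did not pass beside lane (0.0856). The genes whose log2 CPM was most like that of Nampt over the 32 libraries were Plpp6 (r = 0.897), Ces1d (0.889), Ak3 (0.888), Fmo1 (0.875) and Slc46a3 (0.873). Their own peaks lay between ZT16.8 and ZT17.8. Plpp6 is a lipid phosphatase, Ces1d a carboxylesterase and Ak3 a mitochondrial adenylate kinase that uses GTP. These correlations describe libraries that share time points and lanes, and carry no test.

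Among the nuclear sirtuins, Sirt7, which acts in the nucleolus, peaked in the dark phase close to Nampt, Sirt6, a chromatin deacylase of DNA repair and glycolysis genes, peaked in the light phase, and Sirt1, the sirtuin that binds the CLOCK complex, had no call. Sirt7 stood at 18.3, 19.0, 18.5 and 18.1 CPM at ZT9, its lowest group, and at 26.3, 24.0, 23.6 and 21.9 at ZT18, its highest. The mice of ZT15, at 23.1, 25.2, 24.1 and 22.9, lay with those of ZT18, and the mice of ZT6, at 18.6, 19.4, 18.2 and 19.7, with those of ZT9. The day therefore had a flat low stretch from ZT3 to ZT9 (means of 19.4, 19.0 and 18.5) and a higher one around ZT15 and ZT18 (23.8 and 23.9). The cosine had an amplitude of 0.16 ± 0.03 on the log2 scale and a peak at ZT17.27 ± 0.64 h (edgeR quasi-likelihood test, adjusted p = 1.84e-04; exact JTK P = 1.12e-06), and 3.34e-05 beside lane. From ZT18 to ZT21, both on lane 4, Sirt7 fell by 0.25 ± 0.07 (adjusted p = 0.0364), a step called for 2.06% of all genes, although the mouse at 21.9 overlapped the one at 22.2. This call was lost without the filter (0.163) and in 9 of the 32 fits without 1 mouse, with a highest adjusted p of 0.153 without ZT18 replicate 1. Within lane 3 the 3 time points differed (adjusted p = 0.0493), against 1.93% of all genes, a call lost with DESeq2 size factors (0.0502), with library size alone (0.0798) and without the filter (0.11). It was also lost in 10 fits without 1 mouse, those without any mouse of ZT9 or ZT15 or without ZT12 replicates 1 or 3. Only fits that leave out 1 of the 12 mice of lane 3 can change this test. Nampt and Sirt7 were the 2 of the 8 genes with a difference within at least 1 lane, where 16.0% of all genes had one. This count was 1 with DESeq2 size factors, with library size alone or without the filter. It was also 1 in 16 of the 32 fits without 1 mouse, all of which left out a mouse of lane 2 or lane 3. Sirt7 (chromosome 11, 120618372 to 120625240, minus strand) shares 2.4% of its exonic bases with Mafg on the same strand, which peaked at ZT15.71 with an amplitude of 0.21. The genes most like Sirt7 were A330023F24Rik (r = 0.848), the RNA helicase Ddx5 (0.815) and the rRNA methyltransferase Nsun5 (0.808).

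Sirt6 was highest at ZT6, with 10.9, 10.6, 13.1 and 11.6 CPM, and these 4 mice were above the 7.44, 8.89, 9.86 and 8.79 of ZT18. Its lowest group was ZT15, with 9.88, 8.16, 8.97 and 7.68 CPM. The cosine had an amplitude of 0.14 ± 0.04 and a peak at ZT3.96 ± 1.12 h (edgeR, adjusted p = 0.0279; exact JTK P = 0.00928). ZT18 was lower than ZT6 by 0.40 ± 0.11 on the log2 scale (edgeR, adjusted p = 0.0148), a call lost without ZT18 replicate 1 (0.0685) or ZT6 replicate 3. Beside lane the cosine did not pass (adjusted p = 0.153). The cosine call was lost without ZT6 replicate 3 (0.0616), ZT15 replicate 4 or ZT18 replicate 1, and also when genes were not scaled by TMM factors (0.085), without the filter (0.0582) and with the muscle marker level as a covariate (0.0666).

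Sirt1 is the one sirtuin here with E-boxes in the window shown above, and it had neither a JTK call (exact P = 1) nor a cosine (amplitude of 0.06 ± 0.04, edgeR adjusted p = 0.372). Its highest group was ZT3, at 23.2, 18.0, 25.6 and 26.7 CPM, where replicate 2 stood with the mice of ZT9 (19.2, 17.8, 16.8 and 19.6), the lowest group. ZT3 against ZT0 gave 0.29 ± 0.10 on the log2 scale (adjusted p = 0.051), and any difference between time points an adjusted p of 0.0628. This second value passed without ZT3 replicate 2 (0.00688), ZT15 replicate 1 or ZT18 replicate 1. For comparison, Arntl, which encodes BMAL1, had a peak 31.9 times its trough and Clock one of 2.15 times, with peaks at ZT23.16 and ZT23.64.

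Sirt2 had the narrowest course of the 8 genes, with a highest mean 1.12 times the lowest: the group means ran from 86.2 ± 5.37 CPM at ZT6 to 96.8 ± 3.41 at ZT18. The mice had 84.0, 84.0, 82.7 and 94.2 CPM at ZT6 and 93.5, 94.8, 101 and 97.9 at ZT18, so that 1 mouse of ZT6 overlapped ZT18. The amplitude of 0.07 ± 0.02 on the log2 scale, with a peak at ZT15.69, was below the median of all tested genes (edgeR, adjusted p = 0.0397; exact JTK P = 0.021, BH 0.0688). The cosine call was lost in 18 of the 32 fits without 1 mouse (highest adjusted p of 0.0792 without ZT15 replicate 3), and beside lane the adjusted p was 0.299. The genes most like Sirt2 were Ptms (r = 0.774) and the ribosomal protein genes Rpl8 (0.763) and Rpl28 (0.749).

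Of the 3 mitochondrial sirtuins, Sirt4 had a cosine with a peak in the dark phase and Sirt3 one with a peak in the light phase, while Sirt5 had no call. Sirt4, an inhibitor of glutamate dehydrogenase, stood at 11.2, 11.6, 10.8 and 11.2 CPM at ZT9, below every mouse of the other groups except replicate 3 of ZT3, at 11.3. It stood at 16.9, 14.6, 15.5 and 15.1 at ZT18, where the highest values were found. At ZT0 the mice had 12.8, 15.1, 15.4 and 15.0 CPM and at ZT3 11.9, 13.3, 11.3 and 12.9. The step from ZT0 to ZT3, within lane 2, was a fall by 0.24 ± 0.07 on the log2 scale (edgeR quasi-likelihood test, adjusted p = 0.0213), called for 13.8% of all genes. It was lost with library size alone (0.19), without the filter (0.074) and in 4 of the 32 fits without 1 mouse, with a highest adjusted p of 0.0898 without ZT3 replicate 3. Of the 5 steps of 3 h within lanes, this one and that of Sirt7 from ZT18 to ZT21 were the 2 calls among the 8 genes, a count of 1 to 4 when 1 mouse was left out and of 0 without the filter. ZT6 against ZT3, ZT12 against ZT9 and ZT15 against ZT12 were called by edgeR for 0 of the 8, with 0, 3 and 1 at an unadjusted p under 0.05, and for 2.08%, 0.0% and 3.04% of all genes. The cosine of Sirt4 had an amplitude of 0.19 ± 0.02 and a peak at ZT19.75 ± 0.50 h (adjusted p = 1.76e-05; exact JTK P = 2.71e-07), and 7.86e-04 beside lane. The 32 fits without 1 mouse all kept the call, with a highest adjusted p of 6.43e-05. Glud1, its best known target, peaked at ZT13.34 with an amplitude of 0.17 (edgeR, adjusted p = 0.0011), though not beside lane (0.841). Among the genes most like Sirt4 was the heat-shock factor Hsf1 (r = 0.788).

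Sirt3 was highest at ZT9, with 73.4, 90.8, 78.3 and 88.1 CPM, and lowest at ZT18, with 67.4, 68.2, 74.6 and 70.0. The ZT6 mice had 75.0, 73.2, 85.2 and 85.1 CPM, and 1 of them overlapped ZT18. The amplitude was 0.10 ± 0.02 and the peak at ZT8.18 ± 0.76 h (edgeR, adjusted p = 0.00181; exact JTK P = 3.06e-04), so the course was opposed to that of Sirt4 and Nampt and below the median amplitude of all genes. Beside lane the adjusted p was 0.039, and this call was lost in 9 of the 32 fits without 1 mouse, with a highest adjusted p of 0.0934 without ZT9 replicate 2, and also with library size alone (0.0845) and without the filter (0.13). ZT18 was lower than ZT6 by 0.19 ± 0.07 on the log2 scale, at the edge of the threshold (edgeR, adjusted p = 0.04997), and this call was lost in 11 of the 32 fits, with a highest adjusted p of 0.158 without ZT6 replicate 3, as well as with library size alone (0.151) and without the filter (0.141). Sirt3 (chromosome 7, 140863666 to 140882309, minus strand) overlaps 2 genes of the other strand, Ric8a over 7% of its exonic bases and Psmd13 over 5.7%. Ric8a had a cosine that peaked at ZT5.17 with an amplitude of 0.13 (adjusted p = 0.0356), and Psmd13 had none (0.148). Whether the reads were counted by strand is not stated, so it is uncertain whether and in which direction these overlaps affect the counts of Sirt3.

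Sirt5, which removes succinyl and malonyl groups from mitochondrial proteins, had a wide spread within time points. The 4 mice of ZT21, the highest group, ran from 16.9 to 28.1 CPM, and those of ZT3, the lowest, from 11.9 to 17.9. The amplitude of 0.13 ± 0.07, with a fitted peak at ZT20.39 ± 2.00 h, had an adjusted p of 0.21 (edgeR; exact JTK P = 1), and 0.959 beside lane. Sirt5 shares stretches of 100 bases with several other transcripts, at most 3.33% of its stretches with any one of them (Wdr31).

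**Figure D3:**
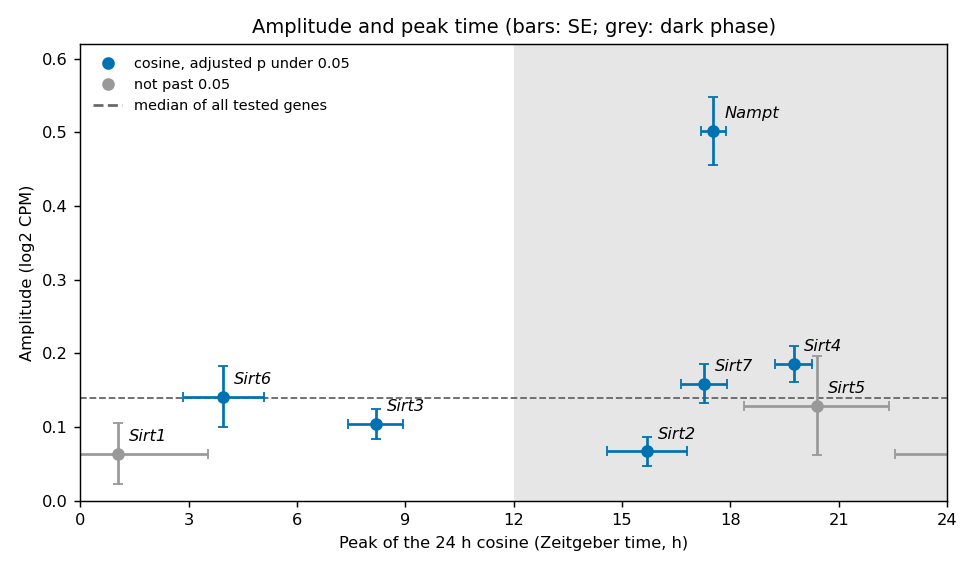
Amplitude of the 24 h cosine in log2 CPM against its peak time for the 8 genes, with SE bars in both directions and the dark phase in grey. Nampt stands at 0.50 and ZT17.53, well above the dashed median of all tested genes (0.14), and the called sirtuins lie between 0.07 and 0.19.

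In the middle of the dark against the middle of the light phase (ZT18 against ZT6), 5 of the 8 genes were called by edgeR, Nampt, Sirt4 and Sirt7 higher and Sirt3 and Sirt6 lower, where 16.9% of all genes were. Leaving out 1 mouse gave 3 to 6 of the 8. The count was 3 without ZT6 replicate 3 or ZT18 replicate 1, where neither Sirt3 nor Sirt6 was called. The mice of the 2 groups did not overlap for Nampt, Sirt4, Sirt6 and Sirt7, as for 22.9% of all genes. Sirt4 was higher by 0.31 ± 0.07 (adjusted p = 0.0028) and Sirt7 by 0.33 ± 0.07 (adjusted p = 8.97e-04) on the log2 scale. Values of other cell types at these times are given beside this: the white fat markers, of which 1 of 3 tested was called higher, summed to 46.0 to 77.6 CPM at ZT6 and 138 to 244 at ZT18, the stroma markers to 466 to 968 and 428 to 618, and the leukocyte markers to 28.5 to 42.5 and 24.2 to 35.0. The muscle markers summed to 2.23 to 1340 CPM at ZT6 (mean of 337) and 2.98 to 3980 at ZT18 (mean of 1380). Ucp1, the uncoupling protein that defines brown adipocytes, was lower at ZT18, at 1280 ± 334 CPM against 2540 ± 831 at ZT6 (a log2 difference of -0.99 ± 0.29, edgeR adjusted p = 0.0171). The part of the white fat, stroma and leukocyte markers and of Ucp1 in the results was not tested. The muscle marker level, added to the cosine after the data were seen, was called for 0 of the 8 genes, with a lowest edgeR adjusted p of 0.628 and 0 at an unadjusted p under 0.05, where 3.13% of all genes were called; with it in the fit the cosine call of Sirt6 was lost (0.0666). At the onset of dark against the onset of light (ZT12 against ZT0), edgeR called 0 of the 8 genes, with 1 at an unadjusted p under 0.05 (Sirt4, adjusted p = 0.0797), where 15.9% of all genes were called. Leaving out ZT0 replicate 1 gave a call for Sirt4 (0.0283), and library size alone in place of TMM gave one for Nampt (edgeR, adjusted p = 0.0433).

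To ask whether mice high in Nampt were also high in a sirtuin at the same time of day, deviations of log2 CPM from the time point means were related over the 32 mice, with mice permuted within time points. Of 7 relations, that with Sirt5 passed: Pearson's r was 0.665 (permutation p = 2.9e-04, BH-adjusted over 7 relations 0.00203) and Spearman's rho 0.647 (permutation p = 4.3e-04, BH-adjusted 0.00301). The TMM factor, which scales the total of a library, moved with both genes: within time points its log2 had r = -0.686 with Nampt and -0.68 with Sirt5, as descriptions. Of the mice low in both genes, ZT15 replicate 1 had the highest factor of all libraries (1.09), ZT9 replicate 3 had 1.07 and ZT6 replicate 4 had 1.05, each the highest of its time point. At ZT0 (replicate 4, 1.021) and ZT3 (replicate 2, 1.058) the mouse with the highest factor was also below the mean in both genes. So it was at ZT18 (replicate 4, 1.026) and ZT21 (replicate 3, 1.034). ZT12 did not follow this: replicate 4, with the highest factor of its time point (1.045), was high in both genes, and replicate 3, low in both, had 1.01. With the factor regressed out of both genes, r was 0.373 and no longer passed (permutation p = 0.0468, BH-adjusted 0.328). With library size alone in place of TMM r was 0.523 (permutation p = 0.00533, BH-adjusted 0.0373). ZT15 replicate 1 also had the most muscle of its time point (5430 CPM), without it r was 0.567 (permutation p = 0.00196, BH-adjusted 0.0137), and with the muscle marker level regressed out 0.618 (BH-adjusted permutation p = 0.0218). Without the 2 mice farthest from the median of Nampt, both of ZT15, r was 0.584 (permutation p = 0.00164). The deviations in this last check were still taken from time point means that included those 2 mice. Within lanes r was 0.667 on lane 2 (12 mice, exact permutation p = 0.0221), 0.887 on lane 3 (12 mice, exact permutation p = 0.00195) and 0.259 on lane 4 (8 mice, exact permutation p = 0.547), so the relation was not seen on lane 4 and whether the lanes differ was not tested. The next in size was Sirt7, with r = 0.359 (permutation p = 0.0442, BH-adjusted 0.155) and rho = 0.32 (permutation p = 0.108, BH-adjusted 0.25). This r was 0.0751 with library size alone and 0.217 with the muscle marker level regressed out. For the other 5 sirtuins r lay between -0.331 and -0.157, with BH-adjusted permutation p of 0.24 to 0.402. For Sirt4 the sign differed between lanes, with r = -0.553 on lane 2 (exact permutation p = 0.107), -0.237 on lane 3 (exact permutation p = 0.603) and 0.816 on lane 4 (8 mice, exact permutation p = 0.0399), a difference that was not tested, and r was 0.055 with the TMM factor regressed out. The genes most like Sirt5 over all libraries were Acot11 (r = 0.83), a thioesterase of brown fat, Mpc1-ps (0.824) and Rmdn3 (0.824).

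**Figure D4:**
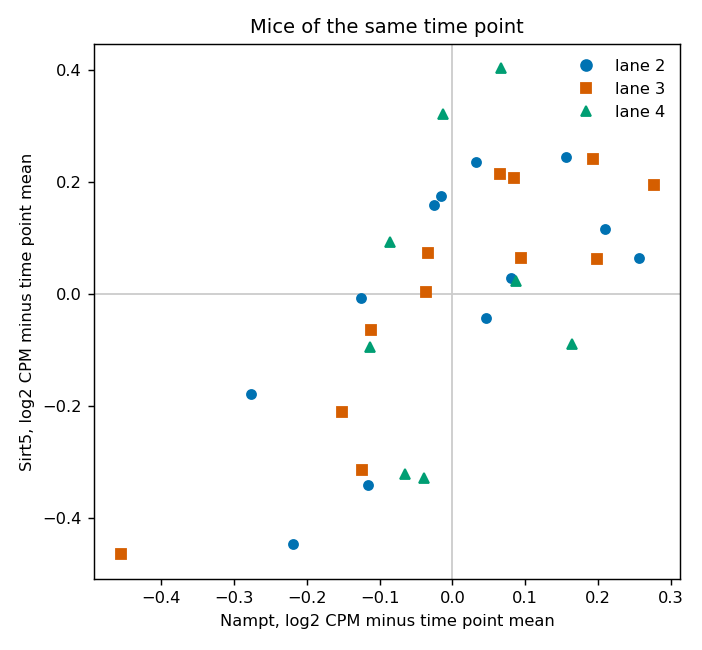
Deviation of Sirt5 against that of Nampt from the mean of the time point, in log2 CPM, with 1 point per mouse and shape and colour by lane. On lanes 2 and 3 mice lower in Nampt tend to be lower in Sirt5 (r = 0.667 and 0.887), with exceptions among mice just below the Nampt mean. The points of lane 4 show little slope (r = 0.259).

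Of 37 other genes of NAD metabolism, 36 were found and 25 passed the filter on low counts. A cosine was called for 8 of these 25 (edgeR; 4 with a peak in the dark and 4 in the light phase), where 36.1% of all tested genes had one, and with lane as a term 2 of the 25 were called, Nmnat1 and Tiparp, where 17.2% of all genes were. The 25 had a median amplitude of 0.11 on the log2 scale, against 0.14 for all tested genes. In the synthesis list 4 of 9 were called, a count to be read against the same 36.1%. Nmnat1, the nuclear enzyme that turns the product of Nampt into NAD, had a peak at ZT21.01 and an amplitude of 0.32 (adjusted p = 8.10e-05; 0.0113 beside lane). Its means ran from 14.3 ± 0.515 CPM at ZT9 to 25.4 ± 5.81 at ZT18. Nadk, the cytosolic kinase that makes NADP, peaked at ZT13.63 and Nadk2, the mitochondrial one, at ZT6.6, with amplitudes of 0.18 and 0.13 (adjusted p = 0.00106 and 0.0102), and neither was called beside lane. The mitochondrial Nmnat3 (adjusted p = 0.188) was not called, nor were Nmrk1 (0.814), Naprt (0.256) and Nadsyn1 (0.56), which make NAD from other precursors. Naprt did differ between time points in the test for any difference (edgeR, adjusted p = 0.00334) and was lower at ZT18 than at ZT6, with a log2 difference of -0.23 ± 0.07 (adjusted p = 0.0346). Afmid, of the pathway from tryptophan, was called at a mean of only 0.999 CPM (adjusted p = 0.0239).

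Among the NAD consumers other than the sirtuins, 2 of 11 had a cosine, against 36.1% of all genes. Parp2, a DNA repair ADP-ribosyltransferase, peaked at ZT23.46 with an amplitude of 0.14 (edgeR, adjusted p = 0.0115), and Sarm1, an NADase, was called at a mean of 0.587 CPM (0.0343). Parp1, at 74.1 CPM and the best known rival of the sirtuins for NAD, gave an amplitude of 0.03 (adjusted p = 0.651), and the ectoenzyme Cd38 0.08 (0.365). Tiparp, a mono-ADP-ribosyltransferase, had an adjusted p of 0.0264 beside lane and 0.167 for the plain cosine. Of the genes for clearance and transport, 2 of 5 were called, against the same 36.1%: Slc25a51, the carrier that brings NAD into mitochondria, ran from 341 ± 23.6 CPM at ZT3 to 566 ± 91.9 at ZT12 (amplitude 0.33, peak at ZT13.22, adjusted p = 3.75e-06), and Nnmt, which methylates nicotinamide, from 6.68 ± 2.2 at ZT21 to 21.4 ± 2.89 at ZT9 (0.56, peak at ZT9.47, adjusted p = 0.00605). Beside lane the adjusted p was 0.128 for Slc25a51 and 0.673 for Nnmt. The mean of Slc25a51 was highest some hours before that of Nampt, and that of Nmnat1 at the same ZT18. Nnt, the gene with the deletion, stood at 3.27 CPM.

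**Figure D5:**
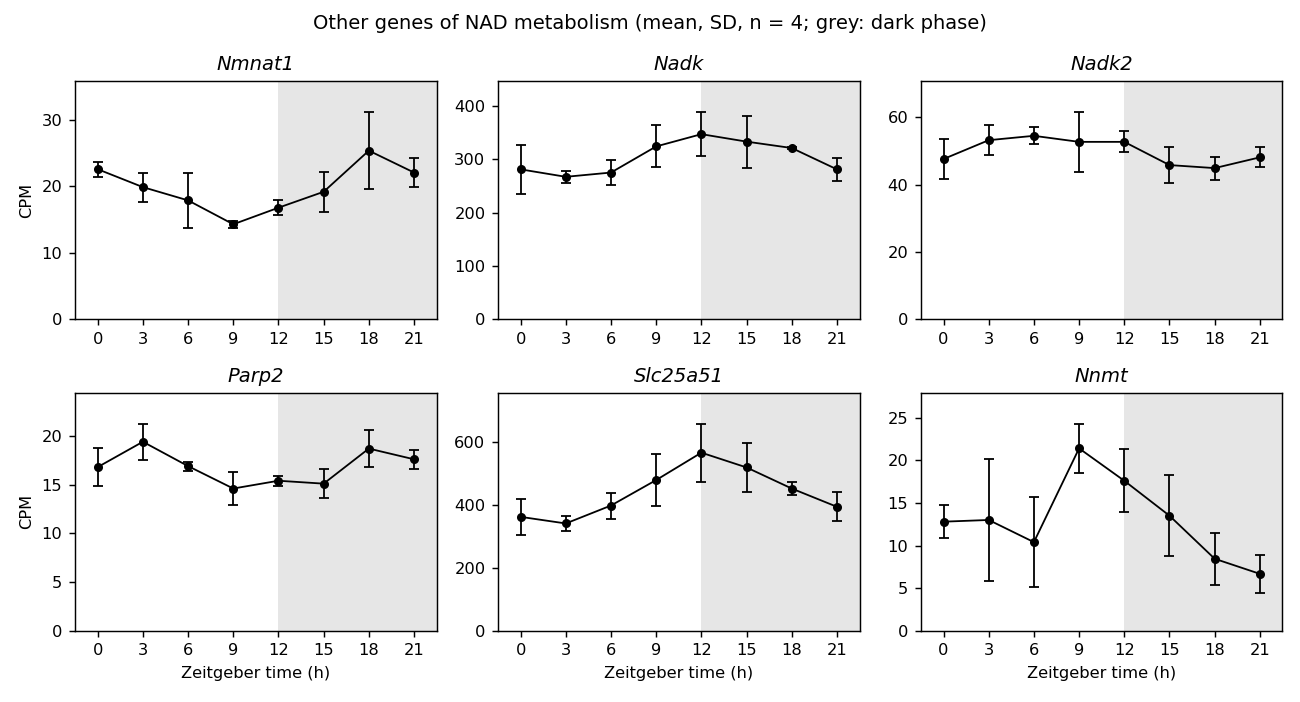
Mean level in CPM with SD (n = 4) against Zeitgeber time for 6 other genes of NAD metabolism with a 24 h cosine, with the dark phase in grey. Nmnat1 is highest at ZT18 (25.4 CPM) and lowest at ZT9 (14.3), Slc25a51 is highest at ZT12 (566), and Nnmt is highest at ZT9 (21.4).

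Of 15 tested partners and substrates of sirtuins, 6 had a cosine (edgeR), against 36.1% of all genes, 5 with a dark and 1 with a light peak by the fit. Beside lane 3 of the 15 were called (Foxo1, Ppargc1a and Ccar2), against 17.2% of all genes, and of the 6 with a cosine Foxo1 was the one that passed. Foxo1, a transcription factor deacetylated by Sirt1 and Sirt2, had means from 45.5 ± 4.45 CPM at ZT0 to 99.4 ± 2.53 at ZT12, with an amplitude of 0.41 and a peak at ZT10.53 (adjusted p = 2.76e-05; 0.00879 beside lane). Acss2, which makes acetyl-CoA from acetate, peaked at ZT22.35 with an amplitude of 0.68 (0.0109), and its values spread widely within time points, for example from 229 to 1200 CPM at ZT6 (0.759 beside lane). Hif1a, at ZT13.27, Trp53, at ZT23.13, and Rps19bp1, at ZT21.66, had amplitudes of 0.12 to 0.16, with adjusted p of 0.17, 0.0588 and 0.393 beside lane.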

How the data were processed

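RNA was isolated from 10 to 20 mg of snap-frozen iBAT and sequenced as stranded, 100 bp, paired-end libraries. The authors, per the submitters' processing notes and the published methods, mapped reads to mm10 with GSNAP and counted reads per Ensembl gene with HTSeq-count (0.6.1); the strand setting of the counting is not given in the sources used here. The deposited values are raw read counts, 1 column per mouse, and the authors applied no normalization to them.

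The 8 genes and all gene lists were chosen with earlier results of these data known. Genes were filtered with filterByExpr (15505 left, with 99.93% of all counts) and scaled with TMM factors in edgeR (4.0.16, R 4.3.3). CPM use the scaled library total, and RPKM are CPM per kilobase of merged exons of GENCODE M21 (GRCm38), which is not the release the authors counted with. At this depth 3 counts in a library are 0.158 to 0.193 CPM, a floor for counting error only. JTK was re-implemented (15 templates of 21 and 24 h, exact null, P corrected for templates). Count models used the quasi-likelihood test of edgeR, BH-adjusted over all tested genes, with a threshold of 0.05; all 32 libraries shared 1 estimate of the spread, except in fits within a lane. Amplitudes and peak times come from log2 CPM with a prior count of 2. Relations were tested by 100000 permutations within time points (exact within lanes). No 2 libraries of one time point differed as little as counting noise (lowest mean chi-square 7.97). The models were tested on simulated counts. Named were all 8 genes, up to 6 genes per list with the lowest p of the cosine, the 5 (Nampt) or 3 (sirtuins) tested genes with at least 1 CPM and the highest r over the 32 libraries, and overlapping genes. Cd38, Parp1, Tiparp, Nmnat3, Nmrk1, Naprt, Nadsyn1 and Nnt were named for their place in the pathway, in part after their values were seen. Alternatives were size factors of DESeq2 (1.42.0) or library size alone, no filter, removal of mitochondrially encoded genes, DESeq2's likelihood ratio test, the 24 h template alone, a replicate block, leaving out each mouse and, chosen after the data were seen, the muscle marker level as a covariate, and for the relations between genes also the TMM factor or that level regressed out, library size alone and leaving out ZT15 replicate 1.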

Additional observations from a re-analysis of the deposited data

Results flagged for a closer look

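In each time point the highest and the lowest of the 4 mice were compared with the others by Dixon's ratio of gap to range. In 3 of the 64 groups of 8 genes and 8 time points 1 mouse stood apart, and chance flags about 1 in 20 groups. For Sirt2 at ZT6, replicate 4 had 94.2 CPM and the others 82.7 to 84.0. For Sirt3 at ZT21, replicate 2 had 69.1 CPM and the others 72.4 to 72.6. For Sirt4 at ZT0, replicate 1 had 12.8 CPM and the others 15.0 to 15.4.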

How the results depend on the processing

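Leaving out 1 mouse at a time gave 5 to 6 of the 8 genes by JTK, 4 to 6 by the cosine, 4 to 6 for any difference, 3 to 4 for the cosine beside lane, 1 to 3 within at least 1 lane, 0 to 1 for ZT12 against ZT0, 3 to 6 for ZT18 against ZT6 and 1 to 4 calls for steps within lanes. The count within lanes was 1 without ZT0 replicates 1 to 3, ZT6 replicates 2 to 4, ZT12 replicates 1 or 3, or any mouse of ZT9 or ZT15; that of ZT18 against ZT6 was 3 without ZT6 replicate 3 or ZT18 replicate 1. With library size alone in place of TMM, any difference was called for 3 of 8, 1 gene was called within a lane, and ZT12 against ZT0 was called for 1, Nampt (adjusted p = 0.0433). Without the filter, which adds low genes to the adjustment, any difference was called for 3, 1 gene within a lane and 0 steps within lanes. With DESeq2 size factors 1 gene was called within a lane. Without 2 mice, r of Nampt and Sirt7 was 0.31 (permutation p = 0.12), with deviations still taken from means that included them. With the TMM factor regressed out r of Nampt and Sirt5 was 0.373 (BH-adjusted permutation p = 0.328). Under library size alone and without the filter the adjusted p of Sirt3 for any difference was 0.11 and 0.107, and that of the cosine of Sirt2 0.054 and 0.114; the cause was not tested. The cosine calls of Nampt, Sirt3, Sirt4 and Sirt7 held under every alternative run. Replicate numbers did not pair the mice: deviations of mice with the same number had a median correlation of -0.14 (other pairs 0.0931). With the replicate block the cosine was called for 6 genes and any difference for 4, without Sirt6 (adjusted p = 0.0523). Sirt6, with 124 to 233 reads per library, had the least depth, and 4 mice per time limit differences between neighbouring times.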
